A study of Mus musculus with 12 samples.

Results

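The Clic genes encode the chloride intracellular channel proteins. Here 4 of these genes were followed across cells labelled as CD8 T cells and given different stimuli. Clic1, Clic3, Clic4 and Clic5 were taken by symbol from the 20778 genes of the count table. The family was chosen by the measured level of Clic5, which was high after interferon gamma (IFNγ) and not after bacterial lipopolysaccharide (LPS), so the Clic5 values, which all rest on these groups or on the Naïve libraries they were compared with, are described and not tested. Clic1, Clic3 and Clic4 entered as genes of the same family, in a choice made with earlier results of these data known. Another family gene of the table, Clic6, had no count in 10 of the 12 libraries and 1 and 3 counts in the other two, and it is not described further.

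Cells labelled as CD8 T cells were collected on magnetic beads from spleens of C57BL/6 mice, 6 weeks old per the labels. The cells were kept for 6 hours in culture. They were left untreated (Naïve) or received an antibody to CD3, a signalling part of the T cell receptor (αCD3, 1 µg/ml), IFNγ (70 ng/ml) or LPS (1 µg/ml). Each of the 4 groups had 3 mRNA libraries with total estimated counts between 10196248 (LPS replicate 1) and 27610175 (αCD3 replicate 1). Strain, tissue, bead isolation and culture time are shared by all groups. The labels write the αCD3 and LPS doses in mg/ml in another field, and the study's methods name an older age range, so both are uncertain. The question behind the series was how the profile after IFNγ differs from the profiles after αCD3 or LPS.

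CLIC proteins are small proteins that exist in a soluble form and in a form bound to membranes. Their N-terminal part folds like a glutaredoxin, and the whole soluble protein is related to the omega class of glutathione S-transferases. Clic1 is expressed in most cells, including leukocytes. Clic4 moves between cytosol, membranes and nucleus and is known as a gene raised in activated macrophages. Clic5 is known from stereocilia of the inner ear and from the foot processes of the kidney, where it links the membrane to actin through ezrin and radixin. Clic3 is known from lysosomes and late endosomes.

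The 4 genes share a stretch of coding sequence around the conserved cysteine of the glutaredoxin-like fold. It is shown because it carries the feature that makes them one family. All stretches lie in coding exon 2 of their gene (GENCODE M21, GRCm38) and are 54 bases long, with the 4 codons that begin at the cysteine codon in capitals. They are written 5′ to 3′ in the direction of the transcript.
Clic1, chr17:35052444-35052497, plus strand: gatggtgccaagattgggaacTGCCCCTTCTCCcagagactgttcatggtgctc
Clic4, chr4:135238909-135238962, minus strand: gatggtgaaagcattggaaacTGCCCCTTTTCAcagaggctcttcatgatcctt
Clic5, chr17:44237142-44237195, plus strand: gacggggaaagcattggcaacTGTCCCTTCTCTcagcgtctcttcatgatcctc
Clic3, chr2:25457670-25457723, plus strand: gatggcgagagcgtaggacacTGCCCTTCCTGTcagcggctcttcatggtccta

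The first capital codon was codon 24 of Clic1, 35 of Clic4, 32 of Clic5 and 21 of Clic3, counted from the start codon. Over the whole coding sequence Clic4 and Clic5 were the most alike pair, with 71.2% identical bases over 750 aligned bases. The other 5 pairs had 57.6% (Clic3 and Clic4) to 65.6% (Clic1 and Clic4). Since these sequences are similar, reads could in principle be divided between genes. Of all 31-base words in their annotated transcripts, 94.7% (Clic1), 94.8% (Clic4), 99.5% (Clic5) and 100% (Clic3) occurred in no other annotated gene. All 4 genes are protein-coding. Clic1 (35049966 to 35058749, plus strand) and Clic5 (44188584 to 44280172, plus strand) are on chromosome 17, Clic4 (135213969 to 135272814, minus strand) is on chromosome 4 and Clic3 (25456838 to 25458776, plus strand) is on chromosome 2. Clic3 overlaps Paxx, which lies on the opposite strand. Both orientations were searched, so the 100% of Clic3 words found in no other annotated gene covers Paxx too. Whether the counting used strand is not given in the sources used here.

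Before the members were described, the label of the cells was compared with marker genes. The summed level of 9 T cell genes, Cd8a and Cd8b1 among them, was 1470 to 1630 CPM (counts scaled to the same library total) in Naïve, 2150 to 2290 in αCD3, 1560 to 1620 in IFNγ and 1190 to 1360 in LPS. B cell genes were not absent. The sum of 10 of them was 3410 to 3720 CPM in Naïve, 2390 to 2780 in αCD3, 2730 to 2840 in IFNγ and 2050 to 3070 in LPS. The sum of 14 myeloid genes was 435 to 827 CPM in Naïve, 300 to 453 in αCD3, 360 to 686 in IFNγ and 261 to 454 in LPS. Over the 12 libraries the sums ran from 66.9 to 122 CPM for CD4 T cell genes, 71.5 to 187 for NK cell genes, 49.4 to 123 for dendritic cell genes, 146 to 271 for neutrophil genes, 280 to 852 for endothelial genes (nearly all of it Pecam1, with Emcn at 0 in Naïve and αCD3) and 338 to 4140 for erythroid genes. In Naïve, αCD3, IFNγ and LPS the NK cell sum was 79.6 to 88.2, 147 to 187, 97.6 to 172 and 71.5 to 125 CPM. In the same order the CD4 T cell sum was 103 to 122, 79.2 to 94.7, 91.3 to 112 and 66.9 to 80.8 CPM. The dendritic cell sum was 74.4 to 123, 66.1 to 80.2, 49.4 to 76 and 73.5 to 95 CPM. The summed B cell level exceeded the summed T cell level in all 4 groups. A lower level in bulk samples can mean fewer cells of a type or less RNA per cell, which cannot be told apart.

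Replicate 1 stood apart in the same way in every group. It had the lowest myeloid sum (435, 300, 360 and 261 CPM in Naïve, αCD3, IFNγ and LPS) and the lowest erythroid sum (338, 409, 575 and 481 CPM), and Clic4 and Clic5 were both lowest in replicate 1 of all 4 groups. Same-numbered libraries deviated together across all tested genes, with correlations of 0.117 to 0.401 over 18 pairs. Values are therefore also given as ratios within a replicate number, and with the replicate number as a block in the fit where that changed a call. The part of myeloid or erythroid cells in the Clic values was not tested.

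Clic5 was the member with the widest range of levels. Its CPM in the Naïve libraries was 0.244, 0.860 and 0.545 in replicates 1 to 3, from 5, 11 and 9 counts. In IFNγ it was 30.7, 59.9 and 57.3 CPM, from 379, 677 and 588 counts. All IFNγ libraries lay far above all others. The LPS libraries, at 0.204, 1.09 and 0.483 CPM, covered the same range as Naïve. The group means were 0.550 ± 0.308 CPM in Naïve, 4.90 ± 3.67 in αCD3, 49.3 ± 16.2 in IFNγ and 0.593 ± 0.454 in LPS (SD, n = 3 each). The IFNγ mean was 89.7 times the Naïve mean, 83.1 times the LPS mean and 10.1 times the αCD3 mean. These 3 ratios rest on values that led to the choice of the gene and carry no test. The ratios depended on single libraries of low counts. Leaving out αCD3 replicate 2 lowered the αCD3 mean to 3.05 CPM and gave a ratio of 16.2 for IFNγ to αCD3, and leaving out LPS replicate 2 lowered the LPS mean to 0.344 CPM and gave a ratio of 143 for IFNγ to LPS. Over each library left out in turn, the ratio of IFNγ to Naïve was 70.2 to 125, that to αCD3 7.34 to 16.2 and that to LPS 62.6 to 143.

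In αCD3 the Clic5 values lay between those of Naïve and IFNγ. The αCD3 libraries had 1.27, 8.60 and 4.83 CPM (36, 104 and 60 counts), and the lowest of them was above the highest Naïve library. The fitted log2 fold change against Naïve was 3.16 ± 0.77 SE (n = 3 per group). Since the low Naïve values entered the choice of Clic5, this difference is a description too. Its size depended on single libraries and on the tool, with 3.69 without αCD3 replicate 1, 2.43 without αCD3 replicate 2 and 2.59 with limma-voom. Marker genes of several cell types differed between αCD3 and Naïve, where 6 of 9 T cell genes were higher, and 5 of 10 B cell genes and 5 of 13 tested myeloid genes were lower (edgeR quasi-likelihood test, adjusted p under 0.05, which is what called means below). Of all 12122 tested genes, 38.6% were called in that comparison (22.9% as higher, 15.7% as lower). The part of these cell types in the Clic5 values was not tested.

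**Figure D1:**
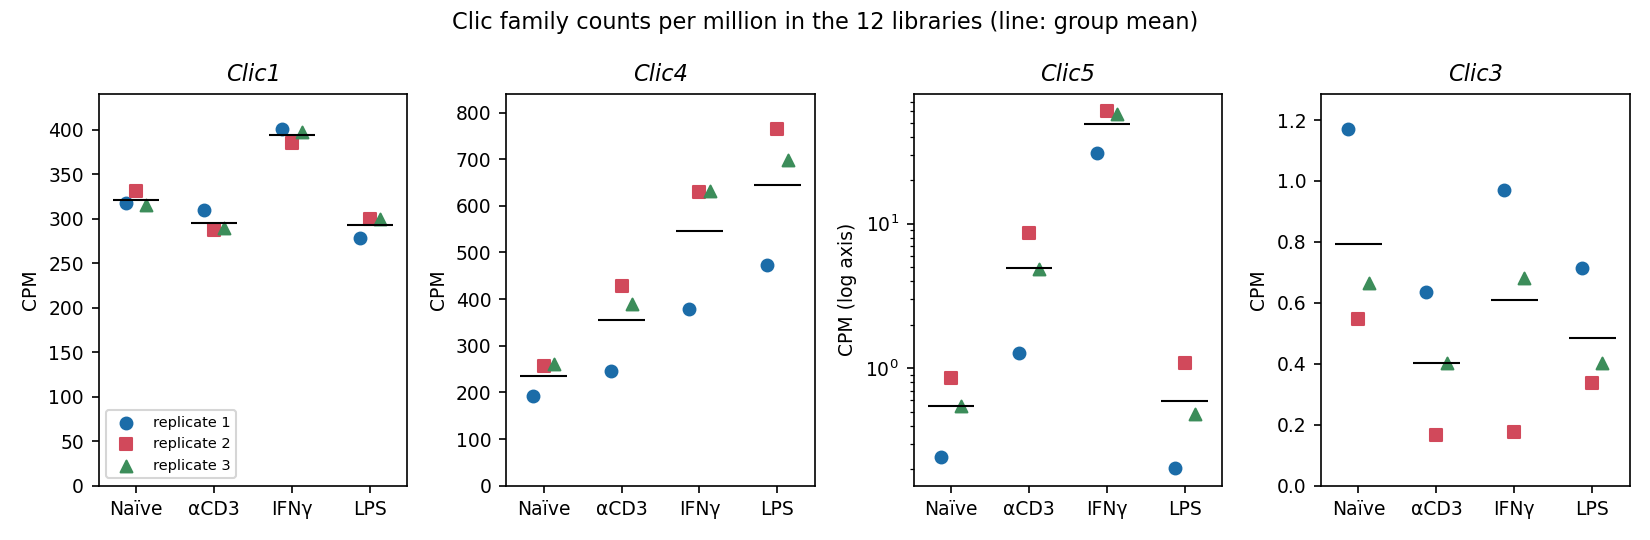
CPM (y axis, TMM-scaled, logarithmic for Clic5) of the 4 members in each library of the 4 groups (x axis). Symbols mark the replicate number and lines the group means. Clic5 is highest in IFNγ (30.7 to 59.9 CPM), Clic4 rises from Naïve to LPS with replicate 1 lowest in each group, Clic1 spans 278 to 401 CPM, and Clic3 stays at or under 1.17 CPM.

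Within a replicate number the Clic5 ratio of IFNγ to Naïve was 126, 69.6 and 105 for replicates 1 to 3. The ratio of αCD3 to Naïve was 5.21, 10 and 8.87. For LPS it was 0.839, 1.27 and 0.886, on both sides of 1. The order IFNγ, αCD3 and then Naïve was present in each replicate number, while Naïve and LPS did not differ beyond their spread. The high IFNγ and low LPS values led to the choice of Clic5, so this pattern is a description. Against αCD3 the IFNγ level of Clic5 was 24.2, 6.96 and 11.9 times higher in replicates 1 to 3, so this ratio varied more between replicates than the group means show.

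Clic4 was raised by both IFNγ and LPS. It had 193, 256 and 260 CPM in the Naïve libraries. In IFNγ the values were 380, 629 and 632 CPM and in LPS 472, 764 and 698 CPM. No IFNγ or LPS library overlapped with Naïve, and the share of all genes separated in this way was not counted. The mean rose from 236 ± 37.6 CPM in Naïve to 547 ± 145 in IFNγ (log2 fold change 1.21 ± 0.27 SE, adjusted p = 0.0147, edgeR) and to 645 ± 153 in LPS (1.45 ± 0.27 SE, adjusted p = 0.00138, edgeR). Of all tested genes 12.4% were called for IFNγ (8.17% as higher, 4.27% as lower) and 49.3% for LPS (26.9% as higher, 22.3% as lower). The 3 comparisons with Naïve share its libraries. The IFNγ call was lost without Naïve replicate 1 (adjusted p = 0.0550), IFNγ replicate 2 (0.0608) or IFNγ replicate 3 (0.0556), with log2 fold changes of 1.08, 1.1 and 1.1 (edgeR, adjusted p from 7.85e-06 to 0.0608 over 19 alternatives). The LPS call held in all 19 alternatives (adjusted p from 1.05e-07 to 0.00772).

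In αCD3 the Clic4 values were 247, 428 and 390 CPM, with a mean of 355 ± 95.8, and replicate 1 lay within the Naïve range. The log2 fold change against Naïve was 0.59 ± 0.26 SE (adjusted p = 0.102, edgeR), not called, in a comparison where 38.6% of all genes were. Within each replicate number αCD3 lay above Naïve, by 1.28, 1.68 and 1.5 times in replicates 1 to 3. With the replicate block the fold change was 0.56 ± 0.07 SE and called (adjusted p = 8.13e-05, edgeR), as were 52.4% of all genes in that fit. It was also called without αCD3 replicate 1, at 0.795 (adjusted p = 0.0310). The ratio to Naïve within a number was 1.97, 2.46 and 2.43 for IFNγ, and 2.45, 2.99 and 2.69 for LPS. In every replicate number the order of Clic4 was therefore LPS, IFNγ, αCD3 and Naïve from highest to lowest.

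**Figure D2:**
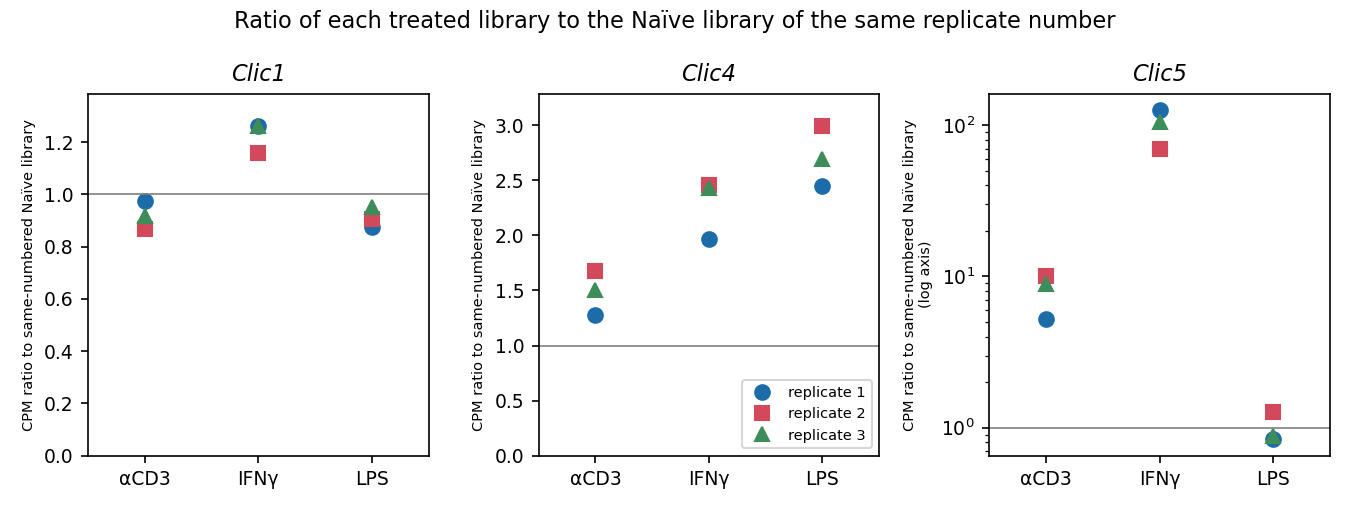
Ratio of CPM in each treated library to the Naïve library with the same replicate number (y axis, logarithmic for Clic5, the grey line marks 1), for αCD3, IFNγ and LPS (x axis). Clic4 lies above 1 in all 9 ratios (1.28 to 2.99), Clic1 above 1 only in IFNγ (1.16 to 1.26), and Clic5 between 69.6 and 126 in IFNγ and near 1 in LPS.

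The steps of that order were tested by setting the treatments directly against each other. Clic4 was lower in αCD3 than in LPS (log2 fold change -0.86 ± 0.26 SE, adjusted p = 0.0444, edgeR), where 19.4% of all genes were called (9.64% as higher, 9.76% as lower). This call was weak. It was lost with no filter on low counts (adjusted p = 0.0784), with only these 2 groups in the fit (0.0851), and without any one of replicates 2 and 3 of Naïve, 1 and 3 of αCD3, 2 and 3 of IFNγ or 2 and 3 of LPS, with adjusted p from 1.13e-05 to 0.152 over 19 alternatives in edgeR, DESeq2 and limma. IFNγ and αCD3 differed by 0.62 ± 0.26 SE (adjusted p = 0.0892, edgeR, 37.2% of all genes called, 15.8% as higher and 21.4% as lower), and with the replicate block by 0.62 ± 0.07 SE (adjusted p = 3.68e-05, edgeR). IFNγ and LPS differed by -0.24 ± 0.26 SE (adjusted p = 0.498, edgeR, 40.4% of all genes called, 18% as higher and 22.4% as lower), and with the block by -0.25 ± 0.07 SE (adjusted p = 0.0116, edgeR). With the block all 6 pairs of groups were thus called for Clic4, in a fit that called 24.9% (IFNγ against Naïve) to 59.5% (LPS against Naïve) of all genes. Among 13 tested myeloid genes, 8 were called as lower and 1 as higher in LPS, where Clic4 was highest, and 1 was called as lower in IFNγ. In LPS 7 of 9 T cell genes were called as lower, and of 10 B cell genes 3 were lower and 1 higher, against 22.3% lower and 26.9% higher among all genes. In IFNγ 0 of the T cell genes were called and 2 of the B cell genes were lower, against 4.27% lower among all genes. Their part in these values was not tested.

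Clic1 moved much less, and only in IFNγ did it lie above Naïve. Its values were 318, 331 and 315 CPM in Naïve and 401, 385 and 397 CPM in IFNγ. The replicates lay close together, with a coefficient of variation of 2.15% to 4.35% in the 4 groups, against 15.9% to 27.0% for Clic4. The mean of 321 ± 8.44 CPM in Naïve and of 394 ± 8.49 CPM in IFNγ differed by 22.8% (log2 fold change 0.30 ± 0.06 SE, adjusted p = 0.00691, edgeR). Both Clic1 and Clic4, the tested members for this comparison, were called, against 12.4% of all genes. When counts were scaled by library size only, without TMM factors, the Clic1 change was 0.16 and not called (adjusted p = 0.0984, edgeR), on a scale where the median of all genes was -0.16.

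In αCD3 Clic1 was at 310, 288 and 289 CPM and in LPS at 278, 300 and 300 CPM. All of these lay below every Naïve library, and the share of all genes separated in this way was not counted. The differences from Naïve were small, with log2 fold changes of -0.12 ± 0.06 SE for αCD3 (adjusted p = 0.118, edgeR) and -0.13 ± 0.06 SE for LPS (adjusted p = 0.0737, edgeR). Neither was called, although the LPS difference was with the replicate block (adjusted p = 0.0419, edgeR), and both were with library size alone or with DESeq2. IFNγ lay above αCD3 by 0.42 ± 0.06 SE (adjusted p = 0.000242, edgeR) and above LPS by 0.43 ± 0.06 SE (adjusted p = 0.000146, edgeR). Of all genes 37.2% were called against αCD3 (15.8% as higher in IFNγ) and 40.4% against LPS (18% as higher). Both Clic1 calls held in all 19 alternatives. αCD3 and LPS differed by 0.01 ± 0.06 SE (adjusted p = 0.898, edgeR) and their libraries overlapped.

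Clic3 was close to the limit of detection. Its counts were 24, 7 and 11 in Naïve, 18, 2 and 5 in αCD3, 12, 2 and 7 in IFNγ and 7, 4 and 5 in LPS. All groups overlapped, with means of 0.794 ± 0.331, 0.401 ± 0.235, 0.610 ± 0.402 and 0.485 ± 0.203 CPM in the same order. It did not pass the filter on low counts and was not tested, so 3 of the 4 members entered the fit. In contrast to Clic4 and Clic5, replicate 1 was the highest library for Clic3 in each group. Within a replicate number the ratio to Naïve was 0.542, 0.302 and 0.605 for αCD3, 0.612, 0.614 and 0.604 for LPS and 0.831, 0.323 and 1.02 for IFNγ. All 3 ratios of αCD3 and of LPS were thus below 1, from counts of 2 to 24, and they were not tested with the block.

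To compare the members with one another, CPM was divided by the length of annotated exons in kb (1.80 for Clic1, 1.01 for Clic3, 6.57 for Clic4 and 8.78 for Clic5). On this scale Clic1 was the most abundant member in every group, at 178 ± 4.71 CPM per kb in Naïve and 219 ± 4.70 in IFNγ, followed by Clic4 at 35.9 ± 5.73 and 83.2 ± 22. The distance between them was smallest in LPS, with 163 ± 7.09 for Clic1 and 98.2 ± 23.3 for Clic4. Clic4 made up 14.2% to 18.4% of the summed level of the 4 members per kb in the Naïve libraries and 31.7% to 41.0% in LPS. Clic5 per kb was below Clic3 in Naïve (0.0626 ± 0.0351 against 0.787 ± 0.327) and above it in IFNγ (5.61 ± 1.84 against 0.604 ± 0.398), while in αCD3 the 2 genes did not differ beyond their spread (0.558 ± 0.418 against 0.397 ± 0.232). Even in IFNγ Clic5 made up 1.23% to 2.16% of the summed level. By the longest transcript in place of all exons, Clic1 was still above Clic4 in LPS (199 ± 8.68 against 157 ± 37.2 CPM per kb).

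**Figure D3:**
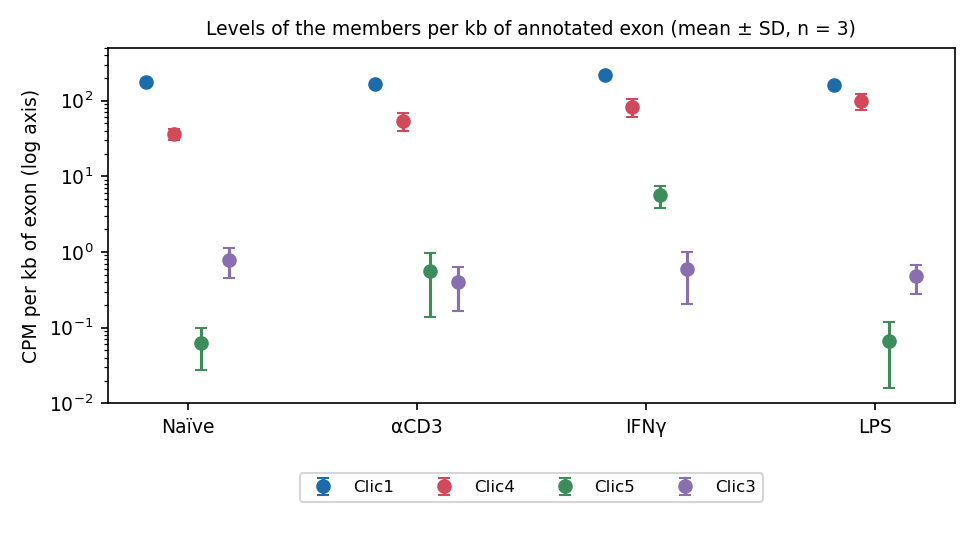
Mean CPM per kb of annotated exon (y axis, logarithmic) of each member in the 4 groups (x axis), with bars of 1 SD over 3 libraries. Clic1 and Clic4 lie above Clic3 and Clic5 in every group, and Clic5 crosses Clic3 between Naïve (0.0626) and IFNγ (5.61).

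The genes with the profile most like each member were then listed by Pearson correlation of log2 CPM over the 12 libraries. This is a description, since groups and replicate numbers are shared by all genes. For Clic5 they were Dnase1l3 (r = 0.981), which encodes a secreted DNase, Hk3 (0.978), a hexokinase, Ly6i (0.974), a Ly6 surface protein, Tspan2 (0.968), a tetraspanin, Atp8a1 (0.966), a phospholipid flippase, Man2a1 (0.961), a Golgi mannosidase, Lrch1 (0.958) and Ddx4 (0.957), an RNA helicase. None of them had a range like that of Clic5. Hk3 went from 22.5 CPM in Naïve to 35.3 in αCD3, 92.4 in IFNγ and 19.8 in LPS, and Ly6i from 3.15 to 11.4, 37.4 and 3.77 CPM. Ddx4 did not exceed a mean of 1.01 CPM in any group.

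For Clic4 the closest genes were Ptgs2 (r = 0.988), the inducible cyclooxygenase, Ifi205 (0.984), an interferon-inducible gene, Casp4 (0.980), an inflammatory caspase, and Map3k8 (0.979), a kinase downstream of Toll-like receptors. Ptgs2 went from 9.55 CPM in Naïve to 28.2 in αCD3, 74.5 in IFNγ and 124 in LPS, the order seen for Clic4. For Clic1 they were Atad2b (0.965), Ctso (0.957), a cathepsin, Ptbp3 (0.956), an RNA-binding protein, and Epb41 (0.952), a protein of the membrane skeleton. Among the members, r was 0.75 for Clic1 and Clic5, 0.39 for Clic4 and Clic5 and 0.12 for Clic1 and Clic4.

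The other chloride channel genes of the cell were set beside the family. The table held 24 of them and 19 were tested, among them the ClC family, the volume-regulated LRRC8 channels, the anoctamins and the tweety genes. In IFNγ 1 of them was called as higher and 0 as lower (3 lower with the replicate block), with a median log2 fold change of -0.14 against -0.02 for all genes. The shares over all genes in IFNγ were 8.17% higher and 4.27% lower, and 24.9% in either direction with the block. The gene was Clcn7, the lysosomal chloride-proton exchanger, which rose from 53.9 to 90.3 CPM (0.75, adjusted p = 0.00214, edgeR). In αCD3 0 were higher and 4 lower (8 lower with the block), with a median of -0.23. Of all genes 22.9% were called there as higher and 15.7% as lower, and 52.4% in either direction with the block. Ttyh2 (-1.48), Ttyh3 (-1.0), Ostm1 (-0.46), the partner subunit of Clcn7, and Ano6 (-0.39), a lipid scramblase, fell there, and the Ano6 call was lost in 5 of 12 refits that left out 1 library (highest adjusted p = 0.113, without αCD3 replicate 2, edgeR).

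In LPS 9 of the 19 were called as lower and 0 as higher, against 22.3% and 26.9% of all genes, with a median of -0.35. The largest called changes were in Ttyh2 (-1.24), Ano8 (-0.74) and Ttyh3 (-0.64), and Lrrc8c fell from 74.7 to 49.9 CPM (-0.58). Of the 9 calls, 4 were lost in some of the 12 refits without 1 library, namely Lrrc8a (8 refits, highest adjusted p = 0.193), Ano10 (4, 0.115), Ostm1 (4, 0.0860) and Ttyh2 (3, 0.0808, edgeR), and the count of lower genes ran from 6 to 11. Ttyh3, the most abundant gene of this list by CPM in Naïve (195), was at 97.2 CPM in αCD3, 152 in IFNγ and 125 in LPS.

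**Figure D4:**
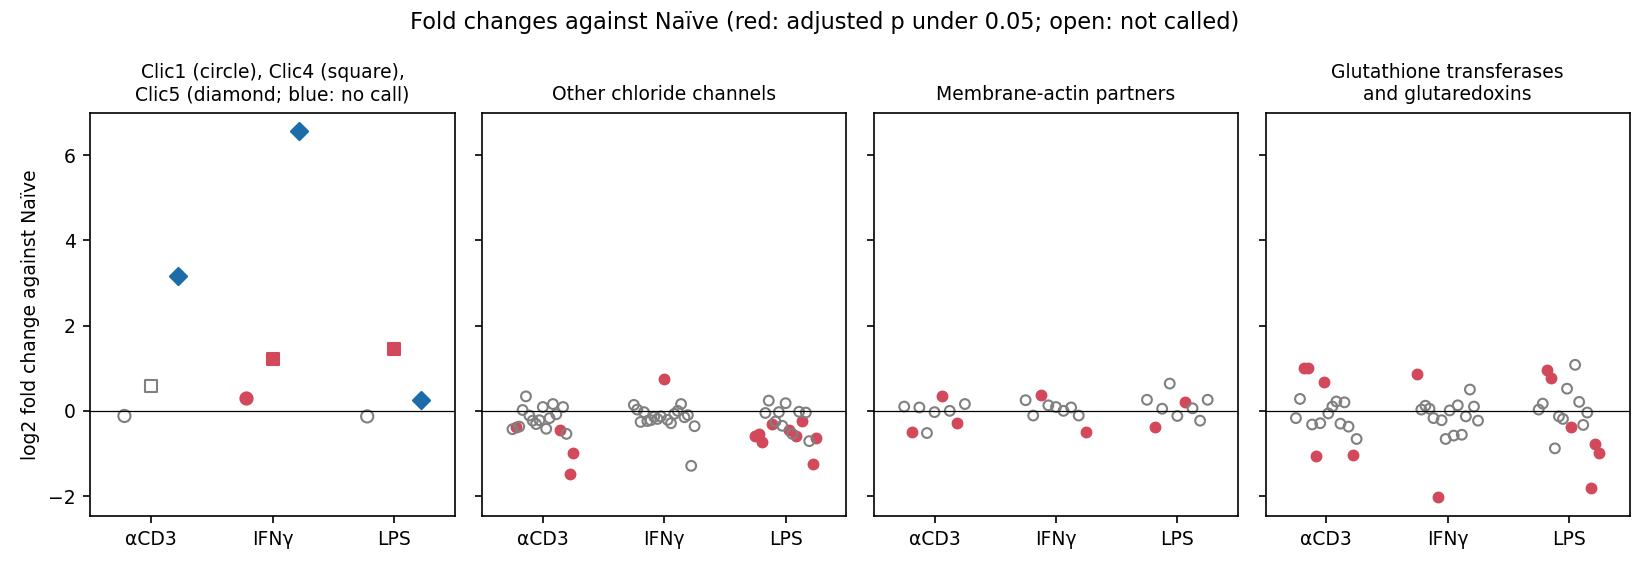
Log2 fold change against Naïve (y axis) for αCD3, IFNγ and LPS (x axis) of the 3 members in the fit (left panel) and of the tested genes of 3 lists, each point 1 gene. Red points passed an adjusted p of 0.05, open points did not, and the blue points of Clic5 are a description with no call. Clic5 in IFNγ lies at 6.56, while the genes of the other chloride channel list lie between -1.48 and 0.75.

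Genes for proteins that join membrane and actin, with which CLIC proteins are known to work, were compared in the same way, and the table held 12, of which 9 were tested. Of all genes 8.17% were higher and 4.27% lower in IFNγ, 22.9% and 15.7% in αCD3 and 26.9% and 22.3% in LPS, and with the block 24.9%, 52.4% and 59.5% were called in either direction. In IFNγ 1 was called as higher and 1 as lower (2 and 1 with the block), with a median of 0.08. Msn, which encodes moesin, the main protein of this kind in lymphocytes, rose from 1070 to 1380 CPM (0.37, adjusted p = 0.00325, edgeR), and Tprn, encoding taperin, fell from 24.5 to 17.4 CPM (-0.49, adjusted p = 0.0180, edgeR), a call lost in 4 of 12 refits without 1 library (highest adjusted p = 0.0731, without IFNγ replicate 3). In αCD3 Rdx (radixin) was called as higher (0.36), and Iqgap1 (-0.49) and Slc9a3r1 (-0.28) as lower, the last not in 6 of 12 refits (highest adjusted p = 0.140, without αCD3 replicate 2, edgeR). In LPS Rdx was called as higher (0.21) and Iqgap1 as lower (-0.39), or 4 genes and 3 with the block, or 1 to 3 genes and 1 to 2 without 1 library, and with library size alone the change of Rdx was 0.00. Ezr (ezrin) was at 470 CPM in Naïve, 504 in αCD3, 559 in IFNγ and 564 in LPS and was not called against Naïve.

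Of the genes related to CLIC proteins by fold, the glutathione transferases and glutaredoxins, 16 of 19 were tested. In IFNγ 1 was called as higher and 1 as lower (2 lower with the block), with a median of -0.06, beside 8.17% higher and 4.27% lower among all genes and 24.9% called with the block. Glrx, cytosolic glutaredoxin, rose from 25.6 to 46.8 CPM (0.87, adjusted p = 0.000549, edgeR) and Gstm1 fell from 12.4 to 3.04 CPM (-2.03, adjusted p = 0.00137, edgeR). In αCD3, where 22.9% of all genes were higher and 15.7% lower, 3 were higher, namely Glrx5 (1.01), Glrx3 (1.0) and the omega class gene Gsto1 (0.67), and 2 lower, Gstm1 (-1.06) and Mgst2 (-1.04), with a median of -0.11. The Gsto1 call was lost in 4 of 12 refits (highest adjusted p = 0.0953, without αCD3 replicate 3, edgeR). In LPS Glrx3 (0.95) and Glrx5 (0.78) were higher (4 higher genes with the block, which called 59.5% of all genes) and 4 genes were lower, against 26.9% and 22.3% of all genes, among them Mgst1 (-1.81), with a median of -0.08. Without 1 library the count of lower genes ran from 2 to 5, with the calls of Mgst1 lost in 2 of 12 refits and those of Mgst3 and Gstp1 in 3 each. Gsto1 was lower in IFNγ than in αCD3 (-1.34, adjusted p = 0.000692, edgeR) and LPS (-1.18, adjusted p = 0.00134, edgeR).

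Genes near the members were also examined. Within 200 kb of Clic5 the tested genes were Enpp4 (0.40 in IFNγ, adjusted p = 0.0602, edgeR) and Enpp5 (0.61, adjusted p = 0.220, edgeR), and neither was called in the 3 comparisons with Naïve. Both were called as higher in IFNγ than in LPS (Enpp4 0.55, adjusted p = 0.00573, and Enpp5 1.38, adjusted p = 0.00479, edgeR), where 18% of all genes were, and in each of 12 refits without 1 library. Enpp5 was also higher in IFNγ than in αCD3 (1.06, adjusted p = 0.0168, edgeR), a call lost in 2 of 12 refits (highest adjusted p = 0.0689, without IFNγ replicate 3). Such calls were not particular to the Clic5 neighbours. Between IFNγ and LPS, Nipal3 and Rcan3 near Clic4 were higher in IFNγ (0.84 each) and Runx3 (-0.62) and Srrm1 (-0.31) lower. The calls of Nipal3 and Rcan3 were lost in 4 and 3 of 12 refits. Some genes near Clic1 and Clic3 were also called there, in both directions. Against Naïve 0 of the 5 tested around Clic4 were called in IFNγ. In αCD3 1 was higher (Srrm1, 0.19) and 1 lower (Nipal3, -0.77), each lost in 7 of 12 refits. In LPS Runx3 (0.66) and Srrm1 (0.27) were higher and Rcan3 (-1.31) and Nipal3 (-1.07) lower. With library size alone Srrm1 was called in neither (adjusted p = 0.404 in αCD3 and 0.467 in LPS, edgeR). Around Clic1, in the gene-dense major histocompatibility region, 2 of 30 tested genes were higher in IFNγ, namely Tnf (1.31, adjusted p = 0.000321, edgeR) and Vars (0.38, adjusted p = 0.0287, edgeR), the latter lost in 4 of 12 refits (highest adjusted p = 0.123, without IFNγ replicate 2) and with library size alone (adjusted p = 0.0921). In αCD3 8 of the 30 were higher and 4 lower, and in LPS 10 were higher and 5 lower. Of these 12 calls in αCD3, 6 were lost in at least 1 of the 12 refits and 2 with library size alone, and of the 15 in LPS 4 and 3 were. Around Clic3 20 genes were tested, of which 0 were higher and 2 lower in IFNγ, 3 higher and 3 lower in αCD3, and 3 higher and 10 lower in LPS. Both IFNγ calls, Tprn and Uap1l1 (-0.44), were lost in some refits (4 and 5 of 12), as were 2 of 6 calls in αCD3 and 3 of 13 in LPS, and with library size alone 1 call in αCD3 and 2 in LPS were lost. The shares over all genes were 8.17% higher and 4.27% lower in IFNγ, 22.9% and 15.7% in αCD3, and 26.9% and 22.3% in LPS.

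Since Clic5 had the widest range, the 250 bases before its RefSeq start are given (chr17:44188322-44188571, plus strand, GRCm38.p6), of which 52.8% are G or C.
Clic5 promoter: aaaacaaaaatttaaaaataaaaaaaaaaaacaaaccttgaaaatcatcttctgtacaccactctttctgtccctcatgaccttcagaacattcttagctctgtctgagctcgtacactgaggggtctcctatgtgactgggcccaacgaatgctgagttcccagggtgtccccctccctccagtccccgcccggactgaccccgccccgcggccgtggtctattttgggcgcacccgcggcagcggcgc

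Windows of this length before the starts of all 4 members were searched on both strands for 4 motifs, with matches to be shown in capitals. These were the interferon gamma activated site TTCNNNGAA, the interferon-stimulated response element (GAAA, any 2 bases, GAAA), an NF-κB pattern (GGG, any 3 bases, TTCC) and the AP-1 pattern TGANTCA. They occur in 7.02%, 2.98%, 4.65% and 6.75% of the 32851 RefSeq windows. Clic5, Clic4 and Clic3 held 0 matches to any of them, and Clic1 held 1 to the NF-κB pattern and 1 to the AP-1 pattern. The absence of a match says only that these letters are not in these windows.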

How the data were processed

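RNA of cells labelled as CD8 T cells was sequenced in 12 libraries, 3 in each of 4 groups assigned from the labels. The deposited values are estimated counts per gene symbol, which the authors made with Kallisto for mouse genome mm10, neither pooled nor scaled. The Kallisto version and transcript annotation are not given in the sources used here. The submitters' processing notes name DESeq2 1.24.0.

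Here counts were rounded and tested with edgeR 4.0.16 in R 4.3.3 (glmQLFit robust, TMM, filterByExpr with a minimum count of 10), in one fit of all 12 libraries with group as its term, over 12122 genes, with Benjamini-Hochberg adjustment across them. SE is the fold change divided by the root of F. CPM uses TMM-scaled library sizes, and correlations use log2 CPM with a prior count of 2. limma 3.58.1, DESeq2 1.42.0 and other settings were alternatives, and the fits were tested on simulated data. Replicate numbers were taken as pairing the libraries because all 18 same-numbered pairs correlated above 0.1. Differently numbered libraries reached 0.102 at most. The main fit does not use this pairing, so its SE and p-values include the differences between replicate numbers. Labels name no separate animals, so p-values measure the spread between these samples, which may be technical. Total counts of 10196248 to 27610175 limit precision for Clic3. Coordinates, exon lengths and transcripts are from GENCODE M21 (GRCm38), coding sequences were aligned with Biopython, and promoters, found for 4 of 4 members, are from RefSeq. The members and lists were chosen with earlier results of these data known. The fit of Clic5 in αCD3 against Naïve is given as a description, since the Naïve libraries entered its choice. Genes named for likeness had the highest correlations (8 for Clic5, 4 for Clic1 and Clic4). Named list genes were those with the largest called changes. Ezr, Clic6 and the direct contrasts of Gsto1 and of the Clic4 and Clic5 neighbours were named after their values were seen.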

Additional observations from a re-analysis of the deposited data

How the results depend on the processing

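The 12 tested values of Clic1 and Clic4 were refitted under 19 alternatives each, 228 refits in all. In 201 the direction and the side of the threshold were kept, in 14 the call was lost, in 11 it was gained and in 2 the sign changed. With library size alone Clic1 was at 0.16 in IFNγ, -0.23 in αCD3 and -0.34 in LPS against Naïve, losing the first call and gaining the others. DESeq2 gained Clic1 in αCD3 (-0.13) and LPS (-0.15) against Naïve and Clic4 in IFNγ against αCD3 (0.64). The replicate block gained Clic1 in LPS (-0.13) and Clic4 in αCD3 (0.56) against Naïve, and Clic4 in IFNγ against αCD3 (0.62) and LPS (-0.25), and changed no other call of these values. Clic4 in αCD3 against LPS was lost with no count filter (-0.85) and with only the 2 groups fitted (-0.85), and the Clic5 value in αCD3 against Naïve, which is a description, was 2.59 with limma-voom. Leaving out 1 library moved Clic4 from 1.08 to 1.41 (IFNγ) and 0.43 to 0.795 (αCD3) against Naïve, from 0.42 to 0.82 for IFNγ against αCD3 and from -1.04 to -0.66 for αCD3 against LPS. Clic4 in IFNγ against LPS ranged between -0.42 and -0.03, and Clic1 between -0.0229 and 0.0329 in αCD3 against LPS, where the sign changed without αCD3 replicate 1 or LPS replicate 1. The cause of these changes was not tested. The 1508 genes called over all tested genes for IFNγ against Naïve became 3020 with the block, 2279 with library size alone and 787 to 1651 without 1 library, and the 2351 for αCD3 against LPS became 4202 with the block, 1440 with only the 2 groups and 1429 to 2590 without 1 library. Of 684 refits of list counts, 95 moved by more than 1.5 times or from or to a count of 0. Clic3, tested only with no filter, had adjusted p from 0.308 to 0.956 (edgeR), and counts of 2 to 24 limit what its values can show.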
